A study of Mus musculus with 6 samples.

Results

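CD11b+Gr-1high cells from the spleens of mice bearing an AT-3 tumor were set against the same cell fraction from IRF8 knockout (KO) mice. The AT-3 mice were wild type and carried a tumor grown from AT-3, a mammary carcinoma cell line. The KO mice lacked IRF8 and carried no tumor. All mice had an H-2b background, and neither their ages nor the number of animals behind an array is given in the labels. Each group had 2 arrays, out of 6 in the series. The other 2, from tumor-free wild-type mice, entered the fit only to help estimate the spread. Both the genotype and the tumor differ between AT-3 and KO mice, so their parts in a difference cannot be told apart. The labels do not say which cells lost IRF8, which part of the gene was removed, or which exons the Irf8 probe reads.

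The comparison covered every probe that read above the negative controls (detection p under 0.05) on at least 2 of these 4 Illumina bead arrays. That was 16084 of 45281 probes, which gave 11377 of the 12492 genes and unnamed probes tested in the series. Of these, 8821 had a gene name, and 8267 were detected on all 4 arrays. Another 252 were detected on both AT-3 arrays and on neither KO array, and 951 on both KO arrays and on neither AT-3 array. Such genes had to differ, so their number is no measure of how alike the groups are.

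Tumors drive bone marrow to release immature granulocytes and monocytes, which collect in the spleen and can restrain T cells. They are known as myeloid-derived suppressor cells. IRF8 is a transcription factor that favours monocytes and dendritic cells over granulocytes, and mice without it build up granulocytes of similar look with no tumor present. Tumor-derived growth factors signal to myeloid progenitors through STAT3 and STAT5, and the title of the study names a STAT and IRF-8 axis. The comparison therefore asks in which genes a granulocyte-rich fraction raised by a tumor differs from one raised by loss of IRF8.

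Purity after flow sorting exceeded 97%, per the study's design text. Raw signal averaged 407 and 421 in KO and 284 and 265 in AT-3, so differences are relative to a scaling that gave all arrays the same distribution of signal (quantile normalization). Of 6 neutrophil markers on the array, all were detected in both groups, and their summed signal was 88100 to 105700 in KO and 102600 to 107500 in AT-3. The probe of Itgam, which encodes CD11b, was detected on all 4 arrays, while Ly6g was not analysed here. The correlation of log2 values across genes was 0.970 for the KO pair, 0.978 for the AT-3 pair and 0.917 to 0.936 for pairs from both groups. It was highest, 0.990, for the wild-type pair, which enters the estimate of the spread. The KO arrays differed from each other by over 2-fold for 9.79% of the genes compared and the AT-3 arrays for 5.28%.

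AT-3 cells held more RNA of many monocyte and red cell genes than KO cells, and less of several immediate early genes. In limma's test with Benjamini-Hochberg adjustment, 769 genes (6.16% of those tested) were higher in AT-3 and 667 (5.34%) were lower. These are the calls at adjusted p under 0.05, and all of them lay among the 11377 genes compared. By size, 101 of the higher genes differed by at least 8-fold and 26 of the lower ones. The median difference was 1.54 over the higher genes, -1.31 over the lower ones and -0.02 over all genes tested, all on the log2 scale. Of the called genes, 1021 were detected on all 4 arrays, 576 of them higher and 445 lower.

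**Figure D1:**
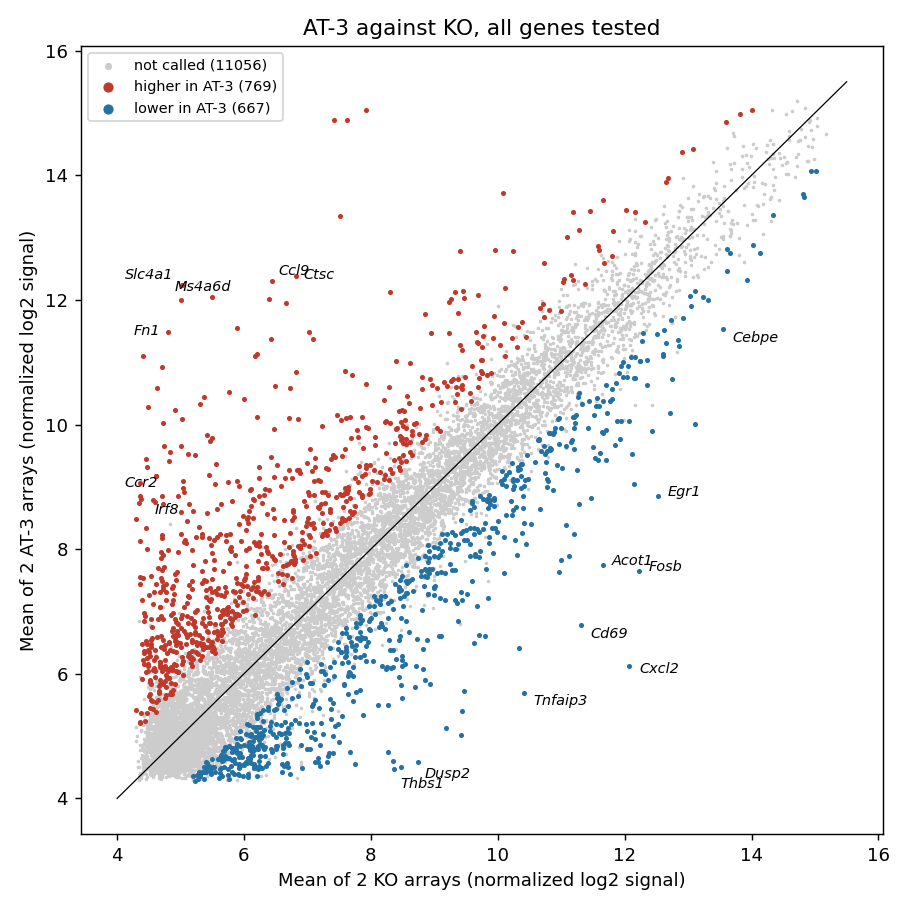
Mean normalized log2 signal of the 2 AT-3 arrays (vertical axis) against that of the 2 KO arrays (horizontal axis) for 12492 genes, with the 769 called higher in AT-3 in red, the 667 called lower in blue, the others in grey and the line of equal signal in black. Genes of monocytes and red cells lie far above the line at low KO signal, while Cxcl2, Fosb and Cd69 lie far below it at high KO signal.

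The balance of rises and falls depended on the scaling. Scaling the arrays to a common median of their detected probes (detected-probe scaling) gave 3986 higher and 666 lower genes and moved the median of all genes to 0.39. The median of the tested genes, a scaling chosen after the data were seen, gave 2290 and 941 with a median of 0.16. A common median of all probes (all-probe scaling) gave 374 and 6073 (median -0.73), and no scaling gave 341 and 6738 (median -0.82). In all 5 scalings, 328 genes were called higher and 489 lower. Leaving out arrays mattered too: 305 genes were higher and 137 lower without AT-3 array 2, 501 and 333 without AT-3 array 1, 882 and 714 without KO array 1, 544 and 470 without KO array 2, and 391 and 216 without either wild-type array. The call held without each array for 251 higher and 98 lower genes.

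**Figure D2:**
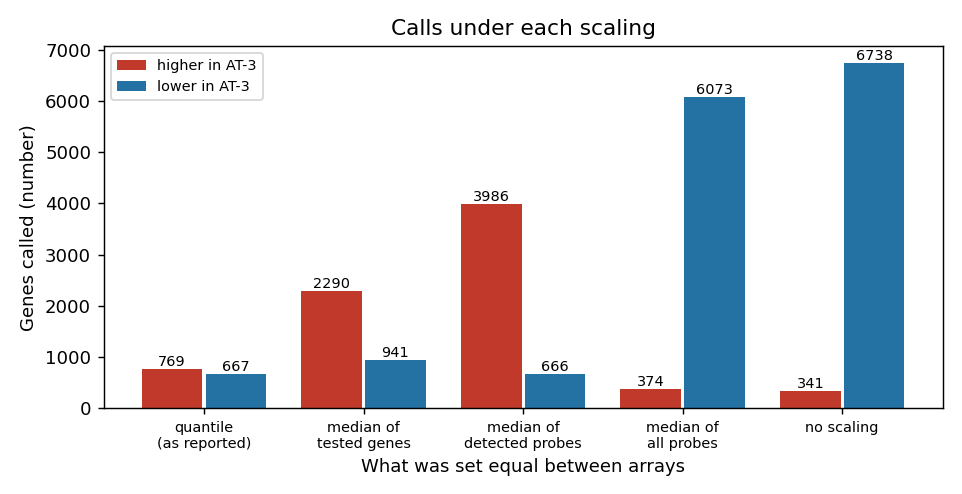
Number of genes called higher (red bars) and lower (blue bars) in AT-3 than in KO at adjusted p under 0.05, for each way of making the 6 arrays comparable. Higher genes outnumber lower ones 3986 to 666 when the detected probes are set equal, and lower genes outnumber higher ones 6738 to 341 when nothing is.

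Of 103 named genes that were called, 32 higher and 14 lower ones kept their call under every alternative that tested them, leaving out each array and each scaling included. These are said to have held throughout. Values below are normalized log2 signals, array 1 before array 2, and differences are AT-3 minus KO with their standard error (SE, 2 arrays a group). Without background correction, which is the scale of the authors' deposited log2 values, log2 differences of the called named genes were, at the median, 0.583 times those printed here. With so few arrays the precision is limited, and the study's design text names 2 independent experiments without saying which array came from which or how many animals stand behind one, so p-values measure only the spread between these samples. Folds given as "at least" are bounds, for probes that no array of the lower group detected, taken against the lowest detected signal there. Such probes entered the comparison only through the other group, which already required a difference, so their adjusted p-values add no independent support. The gene lists, like the set of all genes tested, hold some of these. In a sorted bulk sample, fewer cells of a type and less RNA per cell cannot be told apart.

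Irf8, the targeted gene, read 4.85 and 5.34 in KO and 8.82 and 8.09 in AT-3. Both AT-3 arrays lay above both KO arrays, and the wild-type arrays at 6.86 and 6.70 lay between them. The difference was 3.36 (SE 0.31, 10.3-fold, adjusted p = 0.00104) and held throughout, with adjusted p from 0.000502 to 0.0101. The probe was detected on both KO arrays. Its position against the removed part is unknown, so it checks the labels only in part. The 250 bases before the start of Irf8 (chr8:120736108-120736357, plus strand, RefSeq on GRCm38.p6) are shown because the study's title joins STAT factors to this gene, with letters that match the STAT palindrome (TTC and GAA with any 3 letters between) in capitals.
Irf8: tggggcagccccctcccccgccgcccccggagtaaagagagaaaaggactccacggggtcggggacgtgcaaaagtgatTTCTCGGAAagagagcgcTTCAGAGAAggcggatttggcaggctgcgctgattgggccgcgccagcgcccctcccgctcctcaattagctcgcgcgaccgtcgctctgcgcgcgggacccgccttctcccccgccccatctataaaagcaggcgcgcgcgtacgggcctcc
They stand 171 and 153 bases before the start and spell TTCTCGGAA and TTCAGAGAA. A match of letters is a description, not a site of binding, and 8.47% of 27025 mouse promoters of 300 bases hold at least 1.

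**Figure D3:**
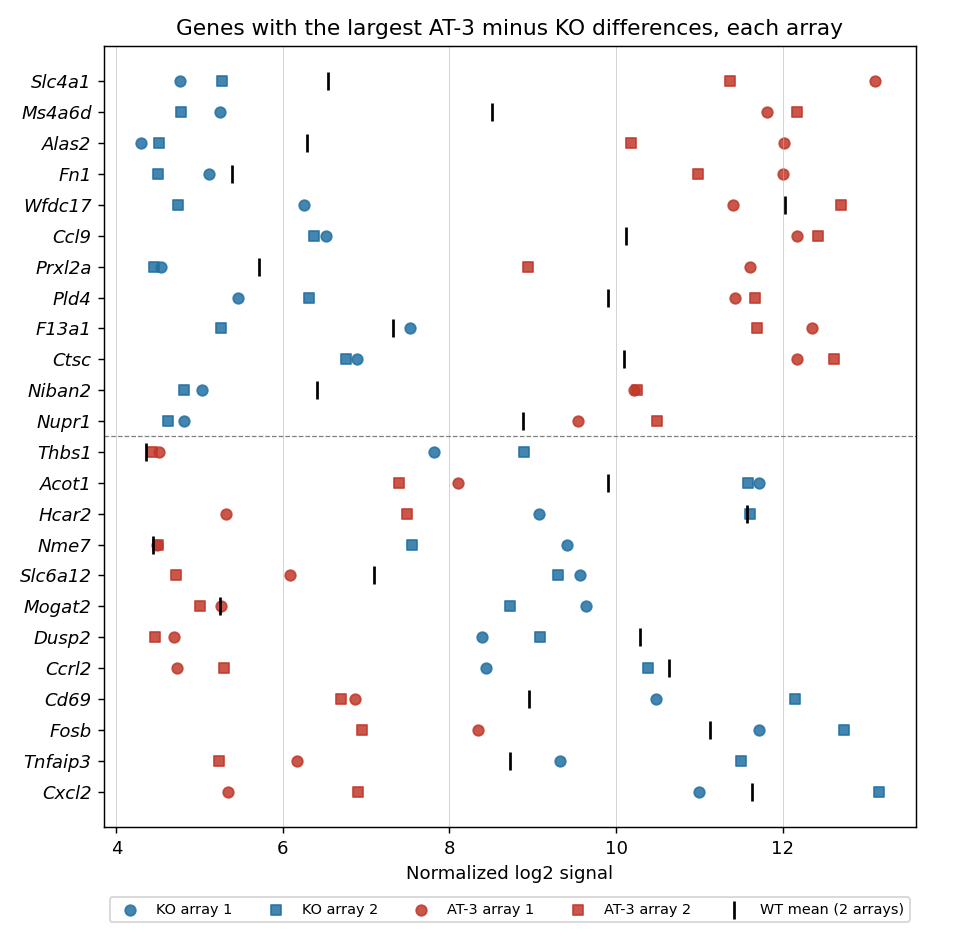
Normalized log2 signal in each KO array (blue), each AT-3 array (red) and the mean of the wild-type arrays (black bar) for the 12 named genes with the largest rise (above the dashed line) and the 12 with the largest fall. These genes were chosen among those whose KO and AT-3 points do not overlap, which holds for 54.6% of all genes tested. Predicted genes and genes with near-identical copies are left out. The KO arrays lie apart for F13a1, Cxcl2, Tnfaip3 and Hcar2.

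The 12 largest rises of named genes, with genes that have near-identical copies left out, held throughout. They included Slc4a1 and Alas2 of the erythroid list, described below with it, and Ms4a6d, Fn1 and Ccl9 of the monocyte list. Ms4a6d, a membrane protein gene of monocytes and macrophages, read 5.24 and 4.77 in KO and 11.81 and 12.17 in AT-3, a difference of 6.98 (SE 0.27, adjusted p = 8.28e-05). Fn1, which encodes fibronectin, read 5.12 and 4.50 in KO and 12 and 10.98 in AT-3 (6.68, SE 0.48, adjusted p = 0.000450). Each of these probes was detected on only 1 KO array, and the wild-type means were 8.51 and 5.39. For Fn1 the wild-type cells were thus close to KO, while for Ms4a6d they lay between the groups.

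Ccl9, a chemokine that draws monocytes and dendritic cells, went from 6.52 and 6.37 in KO to 12.17 and 12.43 in AT-3, a rise of 57.9-fold (5.86, SE 0.21, adjusted p = 8.28e-05). Pld4, a lysosomal exonuclease of myeloid and dendritic cells, went from 5.46 and 6.32 in KO to 11.42 and 11.67 in AT-3 (50.5-fold, SE 0.31 on the log2 scale, adjusted p = 0.000205). In both genes the 2 arrays of a group lay within 1 log2 unit of each other, far less than the gap between groups. Ctsc encodes cathepsin C, which activates the serine proteases of granulocyte granules, and it read 6.89 and 6.75 in KO and 12.17 and 12.61 in AT-3 (47.4-fold, adjusted p = 0.000114). All 3 of its probes were called higher. F13a1, the catalytic chain of clotting factor XIII and a gene of classical monocytes, read 7.53 and 5.26 in KO and 12.35 and 11.70 in AT-3 (5.63, SE 0.65, adjusted p = 0.00296). Its KO arrays differed by more than 2 log2 units, and both still lay below both AT-3 arrays.

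Wfdc17, a small secreted protein of the protease-inhibitor type, read 6.25 and 4.74 in KO and 11.40 and 12.71 in AT-3 (6.55, SE 0.56, adjusted p = 0.000844). Wild-type cells held 12.02, as much as AT-3 cells, so KO cells were the low group. Nupr1, a nuclear stress protein, read 4.81 and 4.62 in KO and 9.54 and 10.49 in AT-3 (5.30, SE 0.32). Niban2, a regulator of cell survival, read 5.03 and 4.81 in KO and 10.22 and 10.25 in AT-3 (5.32, SE 0.25). The AT-3 arrays almost coincided for Niban2 and differed by nearly 1 log2 unit for Nupr1.

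Other genes were detected in AT-3 cells and on neither KO array, and those named here held throughout. They were chosen by that detection pattern, which already required a difference, so their adjusted p-values add no independent support. Trem2, a lipid-sensing receptor of macrophages, read 4.53 and 4.71 in KO and 9.23 and 9.10 in AT-3, at least 20.1-fold higher (adjusted p = 0.000139). Ccr2, the receptor by which inflammatory monocytes leave the marrow, read 4.32 and 4.40 in KO and 8.44 and 9.26 in AT-3, at least 16.2-fold higher (adjusted p = 0.000423). Dusp3, a phosphatase acting on MAP kinases and STATs, read 4.68 and 4.56 in KO and 9.23 and 9.12 in AT-3, at least 20.2-fold higher (adjusted p = 0.000139). The AT-3 arrays agreed within 1 log2 unit for all 3 genes, and KO values were those of probes near the floor. Prxl2a, a peroxiredoxin-like redox protein, was at least 43.3-fold higher, but its AT-3 arrays lay apart at 11.61 and 8.94.

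Over all genes tested, 6.16% were called higher and 5.34% lower, with a median difference of -0.02. Shares of a list are taken over its genes compared. Over all 11377 genes compared, 6.76% were called higher and 5.86% lower. Of the 25 monocyte genes compared, 3 were undetected in KO and entered only through the AT-3 arrays. In all, 15 of the 25 (60%) were called higher in AT-3 and 1 (4%) lower, with a median of 1.84 on the log2 scale. Of these calls, 12 higher and 1 lower held under all 5 scalings, and 12 higher and 0 lower held without each array. The lower gene was Klf2, a factor of quiescent and patrolling cells (adjusted p = 0.0407), whose call was lost when KO array 2 or any array of the AT-3 and wild-type groups was left out (-1.05, adjusted p = 0.101 without a wild-type array). Csf1r, the receptor for the monocyte growth factor CSF-1, read 6.84 and 7.23 in KO and 9.34 and 9.86 in AT-3 (5.91-fold, adjusted p = 0.00185). Its second probe was not called, and the mean of both missed the threshold (adjusted p = 0.0619). The following genes were picked from the list after their values were seen. Clec4a3 and Clec4a1, lectin receptors of monocytes, were 4.30 (SE 0.23) and 3.86 (SE 0.24) higher. Vcan, which encodes the matrix protein versican and marks inflammatory monocytes, was at least 6.07-fold higher and undetected in KO. Tgfbi, an adhesion protein of the matrix, read 11.35 and 11.22 in KO and 12.98 and 13.27 in AT-3 (1.84, SE 0.23). Cx3cr1, the fractalkine receptor of patrolling monocytes, read 4.73 and 5.17 in KO and 5.70 and 6.74 in AT-3 and was not called (1.27, adjusted p = 0.0639).

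The summed signal of the 5 monocyte markers on the array was 266 to 368 in KO, 4994 to 6299 in AT-3 and 2502 to 2808 in wild-type cells. 3 of them were called higher in AT-3. Bright genes weigh most in such a sum, and the markers did not share an order of AT-3 and wild-type cells. Means in AT-3 and wild-type cells were 12.02 and 7.33 for F13a1, but 9.60 and 11.06 for Csf1r. The sort took Gr-1high cells at a purity above 97%, and what part monocytes have in the other rises was not tested. The monocyte marker Ly6c2 was not analysed here. Ly6c1, one of the Gr-1 antigens, read 13.42 and 13.72 in KO and 13.62 and 13.65 in AT-3 (0.07, SE 0.22, adjusted p = 0.881), with a sign that turned to -0.51 under all-probe scaling, -0.60 with no scaling and -0.08 without KO array 1. A probe of Ly6c1 may also read its near-identical neighbour.

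Red cell genes rose with the monocyte genes. Of 10 erythroid genes compared, 3 were undetected in KO and entered only through the AT-3 arrays, Alas2 and Car2 among them. In all, 7 of the 10 were called higher and 0 lower (70% and 0%, against 6.16% and 5.34% over all genes tested). Their median was 2.86 on the log2 scale, or 2.71 with undetected genes at their bounds. Under all 5 scalings, 6 of the calls held, and 5 held without each array. Alas2, which starts heme synthesis in red cell precursors, read 4.30 and 4.52 in KO and 12.02 and 10.18 in AT-3, at least 76.7-fold higher (adjusted p = 0.000684). Slc4a1, the anion exchanger of the red cell membrane, read 4.77 and 5.27 in KO, where 1 array detected it, and 13.11 and 11.37 in AT-3 (adjusted p = 0.000458). Car2, a carbonic anhydrase, read 4.55 and 4.52 in KO and 8.23 and 6.89 in AT-3, at least 6.62-fold higher (adjusted p = 0.00547). In each of these 3 genes AT-3 array 1 lay more than 1 log2 unit above array 2, as it lay above it for 8 of the 10. Hba-a1, an alpha globin, read 7.12 and 7.73 in KO and 15.02 and 14.76 in AT-3 (7.47, SE 0.28), but it was picked after its values were seen and its probe may read the other alpha globin copy. Globin probes took 0.0191% and 0.0251% of the raw signal on the KO arrays, 2.43% and 1.59% on the AT-3 arrays and 0.351% and 0.257% on the wild-type arrays. The summed signal of the erythroid markers was 203 to 279 in KO and 29030 to 37450 in AT-3, and Klf1, the master factor of red cells, was detected on no array. What part red cell RNA has in other differences was not tested.

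**Figure D4:**
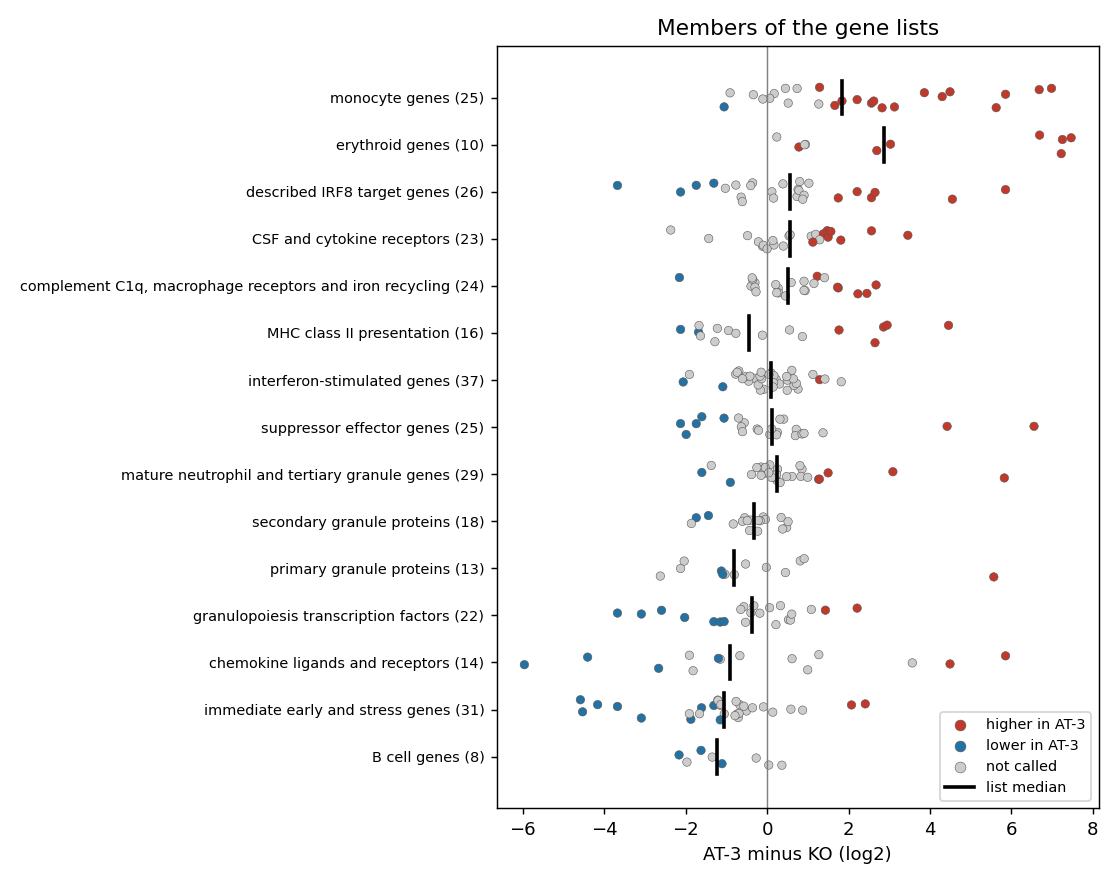
AT-3 minus KO log2 difference of each gene compared (points) in 15 gene lists, with the number of genes in brackets, calls in red (higher) and blue (lower) and the list median as a black bar; the vertical scatter within a list carries no meaning. Monocyte (median 1.84) and erythroid genes (median 2.86) lie to the right, and immediate early and stress genes (median -1.05) to the left.

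Growth factor and cytokine receptors were called higher in 8 of 23 genes and lower in 0 (34.8% and 0%, against 6.16% higher and 5.34% lower over all genes tested; median 0.57). The count was 3 without AT-3 array 2 and 5 without either wild-type array, and 2 of the calls held under all 5 scalings. Il13ra1, a chain of the receptors for IL-4 and IL-13, read 6.73 and 6.21 in KO and 9.47 and 10.38 in AT-3 (11-fold, adjusted p = 0.00142) and held throughout. Wild-type cells held more still, 11.38. Il6ra, the receptor of IL-6, was 1.81 higher (SE 0.24, adjusted p = 0.00562), but only 1 of its 3 probes was called, and the call was lost with no scaling between arrays and with the mean of its probes. Csf2rb, the shared chain of the GM-CSF receptor that signals through STAT5, read 7.39 and 7.74 in KO and 8.23 and 9.06 in AT-3 and was not called (1.08, SE 0.33, adjusted p = 0.0798). Without AT-3 array 2 it was 0.67, and under detected-probe scaling it was called (adjusted p = 0.0390). Csf3r, the G-CSF receptor that signals through STAT3, read 11.10 and 11.19 in KO and 10.65 and 11.97 in AT-3 (0.17, SE 0.40, adjusted p = 0.827), and its AT-3 arrays lay on either side of the KO arrays. With AT-3 array 2 left out its difference was -0.50, and with AT-3 array 1 left out 0.83. Csf2rb and Csf3r both turned negative under all-probe scaling or none.

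Among 16 IRF factors, STAT factors and IRF2-binding proteins, 3 were called higher and 2 lower, and all 5 calls held in every scaling. The shares were 18.8% and 12.5%, against 6.16% higher and 5.34% lower over all genes tested. These calls included Irf8, which the knockout targeted, and the IRF2-binding relatives Irf2bpl and Irf2bp2. Irf5 and Stat4 were the other calls. Irf5, which acts below Toll-like receptors and favours inflammatory macrophages, read 5.79 and 6.62 in KO and 10.18 and 10.05 in AT-3 (15.1-fold, adjusted p = 0.000570). Irf2bpl, a relative of the IRF2-binding corepressors, was 3.07 higher (SE 0.33). Stat4, which carries IL-12 signals, read 9.64 and 10.09 in KO and 7.93 and 8.45 in AT-3, a fall of 1.68 on the log2 scale (SE 0.27, adjusted p = 0.0107). These 3 differences and that of Irf8 held throughout. The fall of Irf2bp2 (-1.35, adjusted p = 0.0305) did not: its call held without AT-3 array 1 (-1.72) and was lost without each other array, down to -0.98 without AT-3 array 2 (adjusted p = 0.126).

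Stat3 and Stat5a were not called, and Stat5b was not analysed here. Stat3 read 10.61 and 10.50 in KO and 10.87 and 10.90 in AT-3 (0.33, SE 0.20, adjusted p = 0.330), and Stat5a read 7.02 and 7.32 in KO and 6.84 and 6.92 in AT-3 (-0.29, SE 0.22, adjusted p = 0.434). Stat3 became -0.78 and was called lower under all-probe scaling (adjusted p = 0.0149), and likewise with no scaling. Stat5a was called lower in the same scalings (-1.29 and -1.39) and ranged from -0.44 to -0.14 over the KO arrays left out. Of 22 STAT feedback and target genes, 3 were higher and 2 lower, with 5 higher without AT-3 array 1 and 0 lower without AT-3 array 2 or either wild-type array. With all arrays the shares were 13.6% and 9.09%, against 6.16% and 5.34% over all genes tested. Bcl3, a nuclear cofactor of NF-kappaB induced by STAT3, read 6.48 and 6.0 in KO and 8.88 and 9.75 in AT-3 (8.43-fold, adjusted p = 0.00230) and held throughout. Vegfa, the vascular growth factor, went the other way (-1.99, SE 0.40, adjusted p = 0.0226), but its call was lost without KO array 1 (-1.60), without AT-3 array 2 (-1.49) and without either wild-type array.

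Genes of antigen presentation went both ways. Of 16 genes of MHC class II presentation, 5 were higher and 2 lower (31.2% and 12.5%, against 6.16% and 5.34% over all genes tested). The list median was -0.44, or -0.27 with undetected genes at their bounds. Ifi30, a lysosomal reductase that unfolds antigens, read 6.87 and 7.17 in KO and 11.22 and 11.74 in AT-3 (21.9-fold, adjusted p = 0.000212). Lgmn, the protease legumain, read 5.63 and 6.0 in KO and 8.68 and 8.85 in AT-3 (7.72-fold, adjusted p = 0.000684). Cd86, a costimulator of T cells, read 5.55 and 6.64 in KO and 8.74 and 9.18 in AT-3 (7.26-fold, adjusted p = 0.00466). These 3 genes held throughout. H2-DMa, a class II-like chain that helps load peptides, was also higher (1.77, SE 0.29, adjusted p = 0.0119), was picked after its values were seen and kept its call in 3 of the 5 scalings. H2-Aa, a class II alpha chain, read 6.32 and 6.99 in KO and 4.91 and 5.04 in AT-3, where no array detected it (at least 3.06-fold lower, adjusted p = 0.0137). Cd74, the invariant chain, read 9.93 and 10.84 in KO and 7.76 and 8.76 in AT-3 (-2.12, SE 0.42, adjusted p = 0.0217). The fall of H2-Aa was lost without either AT-3 array (adjusted p up to 0.0687), and that of Cd74 without AT-3 array 1 (-1.62), without KO array 2 (-1.67) and without either wild-type array (adjusted p = 0.0540). Lower calls in this list ranged from 0 without AT-3 array 1 to 4 without KO array 1.

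Ctss, the protease cathepsin S that trims the invariant chain and is a described IRF8 target, read 4.73 and 4.70 in KO, with no array detected, and 7.51 and 7.22 in AT-3. It was at least 5.77-fold higher (adjusted p = 0.000929) and held throughout. Its upstream bases (chr3:95526536-95526785, plus strand, GRCm38.p6) are shown as those of a called IRF8 target with a match to the core of the interferon-stimulated response element (GAAA, then GAAA again, with any 2 letters between) in capitals, 21 bases before the start.
Ctss: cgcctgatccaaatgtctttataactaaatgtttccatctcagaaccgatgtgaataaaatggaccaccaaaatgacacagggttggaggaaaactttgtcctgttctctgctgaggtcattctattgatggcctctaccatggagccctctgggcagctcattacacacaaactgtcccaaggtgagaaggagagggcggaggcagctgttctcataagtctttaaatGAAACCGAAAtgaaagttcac
Of 26 genes described as IRF8 targets in other work, 6 were higher and 4 lower (23.1% and 15.4%, against 6.16% higher and 5.34% lower over all genes tested; median 0.56). Lower calls fell to 1 without AT-3 array 2 or either wild-type array and to 2 without AT-3 array 1 or KO array 2. The higher targets were Ccl9, Trem2, Ctss, Csf1r, Klf4 and Blvrb, and the lower ones were Egr1, Cd74, Cybb and Egr2. Each of them is also counted in another list of this text. Cybb fell, and its upstream bases match the same response core 168, 124 and 29 bases before the start.

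The response core was in 3.49% of all promoters, 3.21% of 7811 tested genes with a promoter in the RefSeq table, 4.05% of 518 higher and 2.54% of 394 lower genes. For the composite ETS-IRF element (GGAA and GAAA with any 2 letters between) the shares were 2.79%, 2.56%, 3.28% and 1.78%. The STAT palindrome was in 7.13% of tested, 7.92% of higher and 4.82% of lower genes. Both strands were read, 1 promoter stood for each gene, and 65 promoters held both IRF cores. No test was made of these shares.

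Of 23 Fc receptors and C-type lectins 3 were higher and 2 lower (13% and 8.7%), against 6.16% and 5.34% over all genes tested. Of the 23, 3 were detected on no KO array, Trem2 and Fcgr1 among them. Of 21 lysosomal cathepsins and hydrolases 4 were higher and 0 lower (19% and 0%). The Fc and lectin list had 5 higher calls without AT-3 array 1, and the lysosomal list had 2 without either AT-3 or either wild-type array. Fcgr1, the high-affinity IgG receptor, was undetected in KO (4.37 and 4.35) and read 7.23 and 7.66 in AT-3, at least 6.11-fold higher (adjusted p = 0.000458). Fcgrt, which recycles IgG, was 2.95 higher (SE 0.26). Axl, a receptor for dying cells, read 5.55 and 6.04 in KO and 7.97 and 8.08 in AT-3 (2.23, SE 0.25, adjusted p = 0.00244), and wild-type cells read 10.82. Ctsz, the protease cathepsin Z, was 2.44 higher (SE 0.24). All 4 held throughout. Of 24 genes of complement C1q, macrophage receptors and iron recycling, 6 were higher and 1 lower (25% and 4.17%). The lower gene was Vcam1 (-2.15, adjusted p = 0.0199), whose call was lost without KO array 1 (-1.66), AT-3 array 1 (-1.68) or either wild-type array. Higher calls in this list numbered 4 without AT-3 array 2 or either wild-type array. The summed signal of red pulp macrophage markers was 6850 to 7818 in KO and 5383 to 6261 in AT-3, against 31190 to 32820 in wild-type cells, and Cd5l was detected on no array.

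Mogat2, Slc6a12, Acot1 and Thbs1 were among the 12 largest falls. Mogat2, an enzyme of triglyceride synthesis, read 9.64 and 8.73 in KO and 5.26 and 5.0 in AT-3 (-4.05, SE 0.32, adjusted p = 0.000622). Slc6a12, a carrier of betaine and GABA, read 9.57 and 9.31 in KO and 6.09 and 4.72 in AT-3 (-4.03, SE 0.42, adjusted p = 0.00183). Both were detected on 1 AT-3 array. Acot1, a cytosolic thioesterase that splits acyl-CoA, read 11.72 and 11.58 in KO and 8.10 and 7.39 in AT-3, 15-fold lower (adjusted p = 0.000438). The KO arrays nearly coincided for Acot1, and wild-type cells lay between the groups at 9.90. Ces1d and Tmc7 were not among the largest falls and are named as bright genes detected in KO only, a choice that already required a difference. Ces1d, a carboxylesterase, read 8.23 and 8.48 in KO and 4.67 and 4.52 in AT-3, at least 9.95-fold lower (adjusted p = 0.000212). Thbs1, which encodes the matrix protein thrombospondin 1, read 7.82 and 8.90 in KO and 4.51 and 4.43 in AT-3, at least 9.97-fold lower (adjusted p = 0.000980). Tmc7, a relative of the transmembrane channel-like proteins, was at least 5.16-fold lower. These 6 falls held throughout. In wild-type cells Thbs1 was as low as in AT-3 cells (4.35), while Ces1d was as high as in KO cells (8.63).

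2 other large falls were less firm. Nme7, a nucleoside kinase relative of the centrosome, was at least 10.9-fold lower by its brightest probe, which no AT-3 array detected, but only 2 of its 6 probes were called. The probe detected on all 4 arrays gave 0.63 with the opposite sign (adjusted p = 0.0880). Hcar2, the receptor for niacin and ketone bodies, read 9.08 and 11.61 in KO and 5.32 and 7.49 in AT-3 (-3.94, SE 0.90, adjusted p = 0.0355). Its call was lost without KO array 2 (-2.67), AT-3 array 1 (-2.85), AT-3 array 2 (-5.02) or either wild-type array (adjusted p = 0.0754).

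Several immediate early genes, which cells switch on within minutes of a stimulus, were lower in AT-3. Of 31 immediate early and stress genes, 9 were lower and 2 higher (29.0% and 6.45%, against 5.34% lower and 6.16% higher over all genes tested). The list median was -1.05, or -0.79 with undetected genes at their bounds. Of the 31, 4 were detected on no AT-3 array and 1 on no KO array. The lower count was 16 without KO array 1 and 5 without AT-3 array 2, and 8 of the 9 held under all 5 scalings. Fosb, a subunit of the AP-1 factor, read 11.72 and 12.74 in KO and 8.35 and 6.95 in AT-3 (24-fold lower, adjusted p = 0.00273). Cd69, an early activation antigen, read 10.48 and 12.15 in KO and 6.87 and 6.69 in AT-3 (23.1-fold lower, adjusted p = 0.00219). Dusp2, a nuclear phosphatase of MAP kinases, read 8.39 and 9.09 in KO and 4.69 and 4.47 in AT-3, at least 13-fold lower (adjusted p = 0.000458). Its probe was detected on neither AT-3 array, a pattern that already required a difference. No AT-3 array came near a KO array in these 3 genes, and the falls held throughout. Egr1, a zinc finger factor, read 11.60 and 13.45 in KO and 8.82 and 8.88 in AT-3 (-3.67, SE 0.53), and Jun, the AP-1 partner of FOS proteins, read 8.95 and 10.47 in KO and 6.60 and 6.64 in AT-3 (-3.09, SE 0.45). Their AT-3 arrays agreed closely while KO array 2 lay above KO array 1, and their calls were lost without AT-3 array 2 (adjusted p = 0.0542 for Egr1 at -3.70 and 0.0545 for Jun at -3.11). Fos itself was -1.15 (SE 0.23, adjusted p = 0.0216), lost without KO array 2, AT-3 array 2 or either wild-type array (adjusted p up to 0.105). Wild-type cells read 13.60 for Egr1 and 11.13 for Fosb, nearer to KO than to AT-3. KO array 2 lay above KO array 1 for most of this list: array 1 was the higher one for 4 of 31 genes. Hsph1, a heat shock protein gene, and Zfp36l1, which speeds the decay of messenger RNAs, rose by 2.41 and 2.07, the former lost without KO array 2 (2.42, adjusted p = 0.0524) and the latter without AT-3 array 2 (1.74, adjusted p = 0.0826).

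Several targets and brakes of NF-kappaB fell too. Cxcl2, a chemokine that draws neutrophils, read 11 and 13.15 in KO and 5.34 and 6.90 in AT-3, a fall of 5.96 on the log2 scale (SE 0.78, adjusted p = 0.00520). Ccrl2, a receptor that presents the attractant chemerin, read 8.44 and 10.39 in KO and 4.73 and 5.29 in AT-3, with 1 AT-3 array detected (-4.41, SE 0.59, adjusted p = 0.00568). Both held throughout, although the arrays within a group differed by 0.5 to more than 2 log2 units. Tnfaip3, the ubiquitin editor A20 that shuts NF-kappaB off, read 9.33 and 11.50 in KO and 6.16 and 5.23 in AT-3 (-4.72, SE 0.70, adjusted p = 0.00826). Its call was lost without AT-3 array 2 (-4.25, adjusted p = 0.0669). Nfkbiz, a nuclear IkappaB protein, read 12.27 and 13.94 in KO and 9.94 and 10.07 in AT-3 (-3.10, SE 0.53, adjusted p = 0.0136), lost without AT-3 array 1 (-3.04) or array 2 (-3.16). Of 30 genes of the IL-1, TNF and NF-kappaB systems, 5 were lower and 1 higher (median -0.19, or -0.08 with bounds). These shares were 16.7% and 3.33%, against 5.34% and 6.16% over all genes tested. The lower count was 9 without KO array 1 and 2 without either AT-3 array, while the higher count was 3 without KO array 2. The higher gene was Pycard, the adaptor of inflammasomes (1.46, SE 0.22, adjusted p = 0.00846), whose call was lost under all-probe scaling or none.

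The upstream bases of Cxcl2 (chr5:90903649-90903898, plus strand) and Tnfaip3 (chr10:19015411-19015660, minus strand), both from RefSeq on GRCm38.p6, are shown as those of the largest falls with letters matching the NF-kappaB site, in capitals. This motif was chosen after the values were seen.
Cxcl2: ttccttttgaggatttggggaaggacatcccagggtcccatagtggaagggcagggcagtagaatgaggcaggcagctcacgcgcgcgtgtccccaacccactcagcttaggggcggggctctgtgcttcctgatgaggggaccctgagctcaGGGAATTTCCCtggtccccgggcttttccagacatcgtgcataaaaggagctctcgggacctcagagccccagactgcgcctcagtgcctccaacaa
Tnfaip3: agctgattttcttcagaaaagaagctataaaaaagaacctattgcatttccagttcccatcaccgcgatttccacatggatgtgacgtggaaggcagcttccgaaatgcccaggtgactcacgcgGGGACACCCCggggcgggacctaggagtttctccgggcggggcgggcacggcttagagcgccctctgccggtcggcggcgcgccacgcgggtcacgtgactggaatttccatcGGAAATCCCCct
In Cxcl2 a pair of overlapping matches starts 97 and 96 bases before the start, and in Tnfaip3 the matches start 125 and 12 bases before it. The NF-kappaB site was in 4.35% of all promoters, 4.90% of tested, 5.60% of higher and 6.60% of lower genes.

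Chemokine ligands and receptors went both ways, with 2 of 14 higher and 4 lower (median -0.91, or -0.76 with bounds). These shares were 14.3% and 28.6%, against 6.16% and 5.34% over all genes tested. The 2 that rose were Ccl9 and Ccr2, described above. Besides Cxcl2 and Ccrl2, Ccl3, an attractant of macrophages, read 10.39 and 12.56 in KO and 8.85 and 8.78 in AT-3 (-2.66, SE 0.62, adjusted p = 0.0361). Its KO arrays lay more than 2 log2 units apart: the difference was -1.58 without KO array 2 and -3.75 without KO array 1, and the call was lost without either AT-3 array (-2.69 and -2.63) or either wild-type array. The lower count was 7 without KO array 1, 3 without AT-3 array 1, and 2 without AT-3 array 2 or either wild-type array. The higher count was 4 without AT-3 array 1.

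Of 22 factors of granulocyte development, 7 were lower and 2 higher (31.8% and 9.09%, against 5.34% and 6.16% over all genes tested; median -0.36). Of the 7, Egr1, Jun, Egr2 and Fos are also counted among the immediate early genes above and Klf2 among the monocyte genes, which leaves Cebpe and Gfi1. Of these calls, 6 lower and 0 higher held under all 5 scalings. The lower count was 1 without AT-3 array 2, 4 without KO array 2 or either wild-type array and 5 without AT-3 array 1. Cebpe, the factor of granule gene expression in maturing granulocytes, was the 1 that held without each array and was picked after its values were seen. It read 13.51 and 13.60 in KO and 11.90 and 11.16 in AT-3 (4.06-fold lower, SE 0.28 on the log2 scale, adjusted p = 0.00657), with 4 of 4 probes called lower. Gfi1, a repressor needed to form neutrophils, read 10.27 and 9.09 in KO and 7.60 and 6.58 in AT-3 (-2.59, SE 0.48, adjusted p = 0.0177). The call did not survive leaving out KO array 1 (-2.0, adjusted p = 0.0554) or AT-3 array 2 (-2.08, adjusted p = 0.101). Wild-type cells held less of both than AT-3 cells, 10.38 and 6.22. Cebpb, the factor of emergency granulocyte output, read 12.29 and 12.66 in KO and 12.78 and 13.31 in AT-3 and was not called (0.57, SE 0.26, adjusted p = 0.200). It was 0.31 without AT-3 array 2, called under detected-probe scaling (1.01, adjusted p = 0.0254) and of opposite sign under all-probe scaling (-0.10) or no scaling (-0.20). The 2 higher genes were Klf4, a factor of monocyte fate, and Id2, an inhibitor of helix-loop-helix factors. Klf4 was 2.21 higher and 1.23 without KO array 1, Id2 was 1.43 higher, and both calls were lost without either AT-3 array or either wild-type array, and under all-probe scaling or none.

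Granule and neutrophil genes went both ways. Of 29 mature neutrophil and tertiary granule genes, 5 were higher and 2 lower (17.2% and 6.90%, against 6.16% and 5.34% over all genes tested; median 0.23). Of 18 secondary granule genes 0 were higher and 2 lower (11.1%; median -0.32). Higher calls in the mature list numbered 2 without AT-3 array 2 and 3 without either wild-type array, and lower calls 0 to 2 over the arrays left out. S100a8 and S100a9, the paired calcium-binding proteins that fill neutrophil cytoplasm, differed by 0.23 (SE 0.22, adjusted p = 0.532) and 0.11 (SE 0.21, adjusted p = 0.771). Both were called higher under detected-probe scaling (1.30 and 1.04) and with the tested genes at a common median (1.08 and 0.82). Without KO array 1 they were 0.07 and 0.21, and without KO array 2 0.40 and 0.02. Itgam read 8.77 and 8.87 in KO and 8.34 and 8.48 in AT-3 (-0.41, SE 0.36, adjusted p = 0.506), and was called lower under all-probe scaling (-1.52) and with none (-1.62). Stfa2, a stefin that inhibits cysteine proteases, read 6.99 and 8.03 in KO and 13.81 and 12.87 in AT-3 (5.83, SE 0.43, adjusted p = 0.000458), and Stfa2l1 was 3.09 higher (SE 0.25). Both were picked after their values were seen, and their probes may read near-identical stefin copies. They were the 2 higher genes of the mature list that held without each array. The secondary granule falls were Olfm4 (-1.44, adjusted p = 0.0465) and Cybb, the NADPH oxidase core (-1.74, adjusted p = 0.0343). Both were lost without KO array 2 (-1.08 and -1.42), AT-3 array 2 (-1.05 and -1.18) or either wild-type array, and Olfm4 also without AT-3 array 1 (-1.83).

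The KO arrays disagreed on proliferation and on primary granules. Of 31 S phase genes, 0 were called in either direction (median 0.06), and KO array 1 lay above KO array 2 for 31 of 31. The median of AT-3 minus KO was -0.97 against KO array 1 and 1.03 against KO array 2. Without KO array 1, 11 S phase genes were higher in AT-3, and without KO array 2, 6 were lower. For G2/M genes 0 of 29 were called (median -0.38), and KO array 1 was the higher one for 28. Without KO array 1, 2 were higher, and without KO array 2, 8 were lower. The AT-3 arrays thus lay between the KO arrays, and no direction of change can be given for proliferation.

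**Figure D5:**
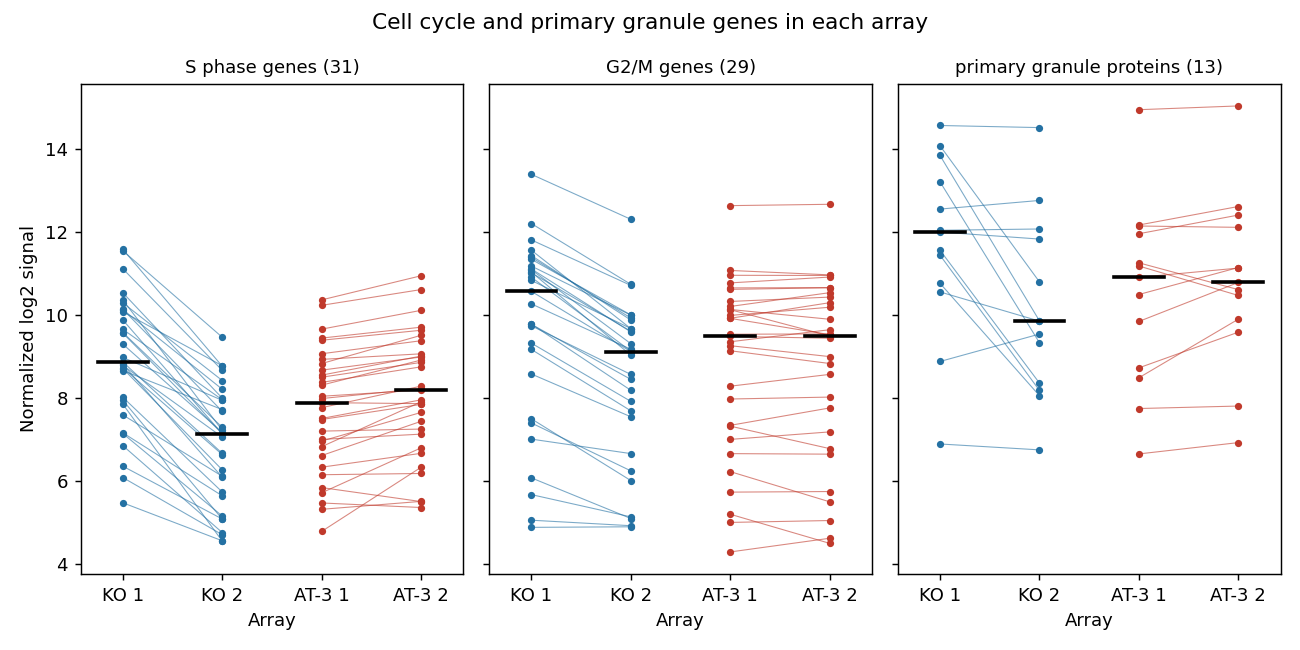
Normalized log2 signal of each gene in each array for S phase genes, G2/M genes and primary granule proteins, with lines joining the arrays of a group (blue for KO, red for AT-3) and the median of each array as a black bar. The KO lines run downward from array 1 to array 2 for all 31 S phase genes, while most AT-3 lines of these genes run slightly upward.

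Primary granule proteins, made at the promyelocyte stage, followed the same split, in a list that also holds Serpinb1a, a protease inhibitor. Of 13 compared, 1 (7.69%) was higher, Ctsc, and 2 (15.4%) lower (median -0.80). Over all genes tested the shares were 6.16% and 5.34%. KO array 1 lay above KO array 2 for 10 of the 13 genes. Mpo, which encodes myeloperoxidase, read 14.08 and 10.80 in KO and 9.84 and 10.78 in AT-3 (-2.12, SE 0.93, adjusted p = 0.187). Elane, neutrophil elastase, read 13.84 and 9.86 in KO and 10.49 and 11.14 in AT-3 (-1.03, SE 1.08, adjusted p = 0.585). Prtn3, proteinase 3, read 13.21 and 9.33 in KO and 11.96 and 12.41 in AT-3 (0.91, SE 1.04, adjusted p = 0.620). These 3 genes were picked after their values were seen, and in each the KO arrays lay more than 3 log2 units apart, with the AT-3 arrays between them for Elane and Prtn3 and below the lower KO array for Mpo. The 2 lower genes, Cd63 (-1.12, adjusted p = 0.0369) and Serpinb1a (-1.09, adjusted p = 0.0470), lost their calls without either KO array, AT-3 array 2 or either wild-type array. Lower calls in this list numbered 5 without KO array 2, 1 without KO array 1 and 0 without AT-3 array 2 or either wild-type array, and higher calls 3 without KO array 1.

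Of 25 genes linked to suppression of T cells, 2 were higher and 5 lower (8% and 20%, median 0.11). Over all genes tested the shares were 6.16% and 5.34%. The lower count was 0 without AT-3 array 2, 1 without either wild-type array, 2 without KO array 2 and 3 without KO array 1 or AT-3 array 1, and the higher count was 4 without AT-3 array 1. Arg1, arginase 1, read 5.03 and 4.87 in KO and 5.65 and 5.64 in AT-3 (0.69, SE 0.21, adjusted p = 0.0724) and was not called. Nos2, inducible nitric oxide synthase, read 4.52 and 4.45 in KO, with no array detected, and 5.04 and 6.67 in AT-3, at least 2.03-fold higher (adjusted p = 0.107). It was 2.19 and called without AT-3 array 1 and 0.56 without AT-3 array 2. Nos2 passed the threshold in each of the other 4 scalings, and Arg1 under detected-probe scaling (1.36) or with the tested genes at a common median (1.13). Cd274, the checkpoint ligand PD-L1, read 6.68 and 7.04 in KO and 5.99 and 6.47 in AT-3 (-0.63, SE 0.25, adjusted p = 0.157), and -0.39 without AT-3 array 1. It was called lower under all-probe scaling (-1.53) and with no scaling (-1.63). Prok2, the cytokine Bv8, read 5.41 and 6.58 in KO and 9.33 and 11.50 in AT-3 (4.42, SE 0.68, adjusted p = 0.00912). The 2 AT-3 arrays of Prok2 lay more than 2 log2 units apart and both above the KO arrays, and its call was lost with no filter on detection. Slc7a11, the cystine carrier, read 6.17 and 7.10 in KO and 4.43 and 4.60 in AT-3, where no array detected it. It was at least 3.02-fold lower (adjusted p = 0.00876), and its call was lost without AT-3 array 2 (adjusted p = 0.0523) and with the mean of its 5 probes, of which 1 was called.

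Interferon-stimulated genes showed no common direction: of 37, 1 was higher and 2 lower (2.7% and 5.41%, median 0.09). Over all genes tested the shares were 6.16% and 5.34%. Ifit2, an antiviral protein, read 8.32 and 7.22 in KO and 5.50 and 5.93 in AT-3 (-2.06, SE 0.38, adjusted p = 0.0169), lost without AT-3 array 1 (-1.84) or array 2 (-2.27). Without AT-3 array 1 the list had 5 higher and 0 lower calls, and without KO array 1 it had 0 higher and 4 lower, and without AT-3 array 2 it had 0 of either. Of 18 genes of MHC class I and the immunoproteasome, 1 was higher, Psmb10 (1.77, SE 0.22), and 1 lower, H2-K1 (-1.04, SE 0.22). Each was 5.56% of the list, near the share over all genes tested. Psmb10 lost its call under all-probe scaling or none, and H2-K1 without any 1 array.

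Among metabolic and growth genes, Slc2a1, the glucose carrier GLUT1, read 8.01 and 8.78 in KO and 10.53 and 11.51 in AT-3 (6.15-fold, adjusted p = 0.00751) and held throughout, as did Ankrd37, a hypoxia-induced gene (2.83, SE 0.40). They were among 3 higher genes of 29 in glycolysis and hypoxia (10.3%, median 0.11), where Vegfa was the 1 lower gene. Uqcrq, a subunit of respiratory complex III, read 9.14 and 9.74 in KO and 7.33 and 7.04 in AT-3 (4.76-fold lower, adjusted p = 0.00322) and held throughout. In the list of 43 respiratory chain subunits 1 was higher and 1 lower (2.33% each, median 0.25). The higher call was lost without KO array 2 and without each AT-3 and each wild-type array. Ribosomal proteins were higher in 4 of 36 genes (11.1%, median 0.44) and ribosome biogenesis in 5 of 29 (17.2%, median 0.63), against 6.16% of all genes tested. None of the 4 and 1 of the 5 held under all 5 scalings, with medians of -0.18 and -0.29 under all-probe scaling. Without KO array 1 the counts were 13 and 10, without AT-3 array 1 they were 1 and 2, without AT-3 array 2 both were 0, and without KO array 2 or either wild-type array they were 0 and 1. Tnfrsf10b, the mouse receptor of the death ligand TRAIL, rose by 2.28 (SE 0.22, adjusted p = 0.00152) and held throughout. It was the 1 higher gene of 18 in the BCL2 and apoptosis list.

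The 5 progenitor markers summed to 897 to 1167 in KO and 219 to 568 in AT-3, and 0 of them were called. On both KO arrays 1 of them was detected, and on both AT-3 arrays 2. Of 8 progenitor genes, 1 was lower and 0 higher (median -0.06). The lower gene, Lmo2, lost its call without KO array 1, either AT-3 array or either wild-type array. Cd34 was detected on no array, and what part progenitors have in the values of granulocyte factors and primary granule proteins was not tested. Only 2 of 5 B cell markers were on the array, and they summed to 430 to 471 in KO and 102 to 147 in AT-3. Of 8 B cell genes, 3 were detected on no AT-3 array and entered only through the KO arrays. In all, 3 of the 8 (37.5%) were called lower (median -1.23, or -0.91 with bounds), against 5.34% over all genes tested. Of these calls, 1 held under all 5 scalings. Cd79b, a chain of the B cell receptor, read 8.65 and 8.79 in KO and 6.86 and 6.26 in AT-3 (-2.16, SE 0.32, adjusted p = 0.00831), and its call was lost without AT-3 array 2 (adjusted p = 0.0576). The B cell count was 1 without KO array 2 or AT-3 array 1 and 0 without AT-3 array 2, and what part B cells have in other falls was not tested. Gp9, a platelet glycoprotein, read 6.43 and 6.58 in KO and 5.08 and 4.58 in AT-3 (-1.67, SE 0.24, adjusted p = 0.00737) and held throughout, with Pf4 detected on no array. T cell markers summed to 319 to 811 in KO and 161 to 269 in AT-3, and 0 of 9 T cell genes were called, with 3 lower without KO array 1. For dendritic cells, 0 of 9 genes were called, and Zbtb46, Xcr1 and Ccr7 were detected on no array.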

How the data were processed

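Biotin-labelled cRNA from sorted splenic CD11b+Gr-1high cells was hybridised to 6 Illumina bead arrays, 2 a group. The deposited table gives, per the file headers, each probe's mean bead intensity and its detection p-value, made with GenomeStudio per the submitters' processing notes. The authors' deposited log2 values matched quantile-normalized log2 intensities without background correction to within 5e-09, so they served as an alternative.

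Intensities were background-corrected by normexp with detection p-values and offset 16, then quantile-normalized as log2 values (neqc in limma 3.58.1, R 4.3.3). The filter left 17631 probes, those with detection p under 0.05 on 2 or more of the 6 arrays, and the brightest probe stood for a gene. Gene names came from the platform annotation, updated by Entrez ID for 34807 probes. All 6 arrays entered 1 fit, and adjusted p-values in the text are limma's with Benjamini-Hochberg adjustment over 12492 features. In 2 against 2 arrays no exact permutation test can reach 0.05. In simulated data of this comparison with 12492 features, 69.0% of log2 changes of 2 and 89.0% of 3 were recovered. The simulation changed 200 features and drew noise independently for each gene. The real data gave 1436 calls and held shifts shared by many genes of an array, so these rates may not hold for them.

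Replicate numbers did not pair arrays: deviations from the group means correlated at 0.01 between same-numbered KO and AT-3 arrays. Members and gene lists were chosen with earlier results of these data known. Named genes were the 12 largest called rises and the 12 largest falls without overlap, up to 3 called genes at each end of a list, the 5 brightest genes detected in only 1 group, and Irf8 and STAT, suppressor and sort genes whatever their value. Predicted genes and genes with near-identical copies were left out. Alternatives varied background, scaling, filter, probe choice, fit, threshold and the arrays used. The mouse promoter sequences come from RefSeq.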

Additional observations from a re-analysis of the deposited data

How the results depend on the processing

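With 2 arrays a group, differences near the threshold were decided by single arrays, and signals near background limit both folds and their precision. The counts of 769 higher and 667 lower genes became 3986 higher under detected-probe scaling, 374 and 6073 under all-probe scaling, 341 and 6738 with no scaling, and 2290 higher with the tested genes at a common median, an alternative chosen after seeing the data. With no filter 421 genes were lower, with detection under 0.01 on all 4 arrays 443, with the 4 KO and AT-3 arrays alone 391 were higher and 216 lower, and at adjusted p under 0.01 288 and 123. Leaving out 1 array gave 305 to 882 higher and 137 to 714 lower genes. The replicate number as a block gave 693 higher and 586 lower genes, and the pairing check found no shared deviation. Over the main counts and Irf8, 45 of 65 alternative values stayed on the same side or within 1.5 times and 20 moved. Over 114 named genes, 1891 of 2246 kept direction and call, 318 lost the call, 20 gained one and 17 changed sign. The sign changed for Csf2rb (-0.090 under all-probe scaling, -0.19 with none), Cebpb (-0.10, -0.20), Stat3 (-0.78, -0.88), Csf3r (-0.86, -0.96), S100a9 (-0.068, -0.17), Ly6c1 (-0.51, -0.60) and Atp5a1 (-0.059 with none). It also changed for Stat5a with the mean of its probes (0.014) and for Nme7 with strict detection (0.63). Over the arrays left out, Csf3r ranged from -0.50 to 0.83 and Ly6c1 from -0.081 to 0.21. The cause was not tested.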
